A study of Mus musculus with 12 samples.

Results

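Accessible chromatin at 5 inflammatory effector genes, Nos2, Acod1, Il6, Tnf and Cfb, was followed through 3 phases of an experiment on cells labelled as bone marrow-derived macrophages. It was read by ATAC-seq, in which the Tn5 transposase cuts and tags open DNA. Every peak that the deposited tables assign to one of these 5 gene symbols was taken, which gave 43 of 139999 peaks: 12 for Nos2, 6 for Acod1, 18 for Il6, 2 for Tnf and 5 for Cfb. The choice used gene names and no measured value, and all 43 peaks held reads in every library. All entered the tests, except for alternatives that asked for a mean of at least 10 reads, which left out 4 peaks between the first and rest phases and 1 between the rest and second.

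The cells came from male C57BL/6J mice, 8 weeks old when allocated, which were either left as controls or made diabetic with streptozotocin, a toxin of the insulin-producing beta cells, at 42 to 45 mg/kg a day for 5 days. Mice above 16.9 mmol/L of blood glucose counted as diabetic and stayed hyperglycaemic for 6 weeks. The first phase has a diabetic and a healthy group; the rest phase has diabetic-trained and untrained cells grown in medium of 5 mmol/L glucose with the macrophage growth factor M-CSF for 7 days; the second phase has diabetic-trained and untrained cells that were then exposed to LPS (100 ng/mL) together with IFN-γ (10 ng/mL) for 16 hours more. Each of these 6 groups has 2 libraries, and whether the 2 come from separate animals, or from pooled ones, is not stated, so p-values reflect the spread among libraries alone, which may be technical. When the first-phase cells were taken is not stated either. The tables do not say which mean column is diabetic. The groups are therefore called A and B in each phase, with no link between the letters of different phases, and the libraries of a group are numbered 1 and 2 in an order that is not that of the labels.

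Nos2 encodes the inducible nitric oxide synthase, which makes nitric oxide from arginine, and Acod1 encodes the mitochondrial enzyme that makes itaconate from cis-aconitate. Il6 and Tnf encode secreted cytokines, and Cfb encodes complement factor B, the serine protease of the alternative complement pathway. In macrophages these genes are known targets of Toll-like receptor and interferon signalling, through NF-κB and IRF factors, and Nos2 and Acod1 in particular are textbook genes of cells given IFN-γ with LPS. Tnf belongs to the genes whose promoters are already open in unstimulated macrophages, while Nos2 and Il6 are known to need chromatin remodelling.

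The promoters of the members are shown because each lies inside the peak at the gene's start, whose reads are compared here. RefSeq (GRCm38.p6, the same build as the mm10 of the files) gave one for 3 of the 5 genes, Il6, Acod1 and Tnf. Each run below is the 250 bases before the start, 5′ to 3′ on the strand of the gene, at chr5:30012864-30013113 (plus strand), chr14:103046762-103047011 (plus strand) and chr17:35202008-35202257 (minus strand), and all 250 bases lie within the start peak. Capitals mark motif matches.
Il6: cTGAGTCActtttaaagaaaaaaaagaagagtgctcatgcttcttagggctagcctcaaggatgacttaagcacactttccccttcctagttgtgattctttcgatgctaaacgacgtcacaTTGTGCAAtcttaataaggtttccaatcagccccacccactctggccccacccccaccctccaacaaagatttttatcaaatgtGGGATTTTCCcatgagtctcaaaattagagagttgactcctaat
Acod1: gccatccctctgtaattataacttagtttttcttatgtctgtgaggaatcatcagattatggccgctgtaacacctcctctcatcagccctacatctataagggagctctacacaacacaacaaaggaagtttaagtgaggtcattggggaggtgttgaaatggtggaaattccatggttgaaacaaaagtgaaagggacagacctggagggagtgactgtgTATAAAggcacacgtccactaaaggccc
Tnf: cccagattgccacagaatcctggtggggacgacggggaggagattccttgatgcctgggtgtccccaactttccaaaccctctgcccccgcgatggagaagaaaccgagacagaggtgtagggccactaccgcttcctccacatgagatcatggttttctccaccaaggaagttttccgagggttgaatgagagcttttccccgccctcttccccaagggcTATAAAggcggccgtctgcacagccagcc
The Il6 promoter held a match to the NF-kB consensus, GGGATTTTCC, from 44 to 35 bases before the start. It also held an AP-1 match (TGANTCA) from 249 to 243 bases and a C/EBP match (TTGCNNAA, read on the other strand) from 128 to 121 bases before the start. The Acod1 and Tnf promoters each held a TATA box (TATAAA), 28 to 23 and 29 to 24 bases before the start. Both strands were searched, also for GAS (TTCNNNGAA), the ISRE and PU.1 (GAGGAAGT), which were not found in these 3 windows. Of the 32851 promoters in the RefSeq table, read over the same 250 bases, 7.25% held the NF-kB consensus, 6.75% AP-1, 9.56% C/EBP, 12.4% the TATA box, 7.02% GAS, 2.98% ISRE and 2.44% PU.1. The motifs were chosen as a description of letters and say nothing of binding.

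Several libraries stood apart from their labels or carried signal of other cells. Reads in peaks, recovered for each library from the deposited group means, ran from 3827344 to 18602644. Levels below are log2(reads + 1) after the reads of all 12 libraries were brought to one distribution (quantile scaling), and percentiles rank a peak among all peaks of its own library. A list of 12 interferon and LPS response genes that holds none of the members had a mean level at its start peaks of 5.71 to 5.86 in the rest phase. In the second phase it stood at 5.81 in library A1 and 5.85 in B1, but at 7.61 in A2 and 7.73 in B2, and for 11 of the 12 genes both A2 and B2 lay above all 4 rest-phase libraries, against 1 of 12 for A1 and B1. Second-phase A1 differed from rest-phase A1 by a variance of 1.94 times sampling noise, less than the 3.05 between the rest-phase libraries A1 and A2, while it differed from its own partner A2 by 15.7. Second-phase A2 and B2, of opposite groups, differed by 2.23. Second-phase B1 differed from the 4 rest-phase libraries by 5.19 to 8.23 and from its own partner B2 by 7.85, so its likeness to the rest phase is weaker than that of A1. By Pearson correlation of levels over all peaks, B1 was nearer to the rest-phase libraries (0.805 to 0.895) than to B2 (0.737). By the mean of this list, second-phase A1 and B1 thus do not show the response that their label names. Both still lay above all rest-phase libraries at 7 of the 43 members (background 6.66%). Results of the second phase are given with and without these 2 libraries.

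**Figure D1:**
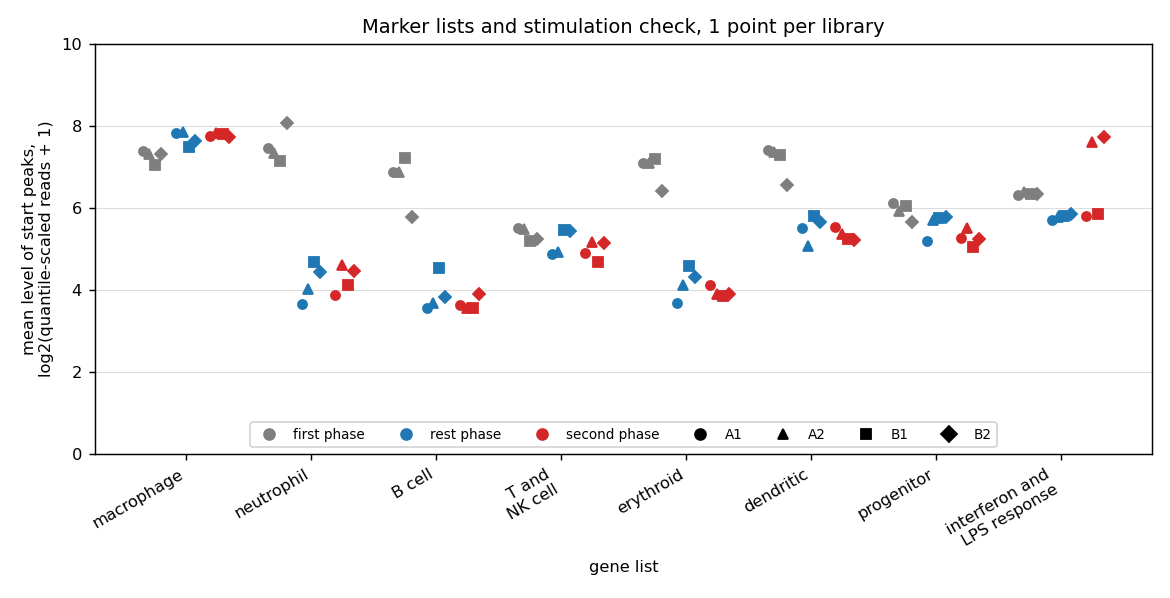
Mean level of the start peaks of 8 gene lists (y axis, log2 of quantile-scaled reads plus 1), with 1 point per library, colours for the 3 phases and shapes for the library names. The interferon and LPS response genes stand at 7.61 and 7.73 in second-phase A2 and B2 and at 5.71 to 5.86 in the 4 rest-phase libraries, and the neutrophil, B cell and erythroid lists are highest in the first phase.

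The macrophage markers were present in all phases, at 7.05 to 7.39 in the first, 7.49 to 7.86 in the rest and 7.73 to 7.82 in the second phase. The first phase also carried markers of other marrow cells. The 10 neutrophil markers stood at 7.14 to 8.07 against 3.66 to 4.68 in the rest phase, the 8 B cell markers at 5.79 to 7.22 against 3.56 to 4.55, and the 6 erythroid markers with a peak at 6.42 to 7.19 against 3.68 to 4.58. Dendritic markers were at 6.55 to 7.42 against 5.08 to 5.81, while T and NK cell markers (5.20 to 5.51 against 4.88 to 5.47) and progenitor markers (5.65 to 6.11 against 5.20 to 5.77) differed less. Any difference between the rest and first phases below moves with these lists, and the part of other cells in it was not tested. Fewer cells of a type and less signal per cell cannot be told apart in such bulk libraries. The spread between the first-phase libraries A1 and A2 was close to that of sampling (a variance ratio of 1.13), and they were counted as 1 sample where phases are compared.

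By the annotation in the tables, 14 of the 43 peaks lay in promoters, 20 in distal intergenic DNA, 5 in exons, 3 in introns and 1 just downstream of a gene. These exons and introns are not all of the members. Il6 peaks 8, 9 and 10 lie in an exon, and Il6 peak 1 in an intron, of other transcripts far upstream of Il6. Peaks are numbered within each gene from upstream to downstream of its RefSeq start. At Nos2 (chromosome 11) the start peak is peak 8 (chr11:78920504-78920903), peaks 1 to 7 reach 44595 bases upstream, peak 9 lies upstream of the start of a shorter transcript and peak 10 at the start of another, and peaks 11 and 12 lie in exon 6 of 27 and intron 11 of 26. At Acod1 (chromosome 14) the start peak is peak 2 (chr14:103046758-103047157), peak 1 lies upstream, peaks 3 to 5 lie within the gene and peak 6 just past its end. At Il6 (chromosome 5) the start peak is peak 15 (chr5:30012739-30013138), peaks 1 to 14 reach 122833 bases upstream, and peaks 17 and 18 lie 23012 and 26936 bases downstream of the start. Tnf (chromosome 17, minus strand) has its start peak 1 (chr17:35201867-35202266) and peak 2 inside the gene, 1354 bases on. Cfb (chromosome 17, minus strand) has its start peak 3 (chr17:34862467-34862866) and peaks 4 and 5 at starts of shorter transcripts within the gene. Cfb peaks 1 and 2 were assigned through a transcript that reaches into C2, the neighbouring complement gene, so they are uncertain as Cfb peaks.

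**Figure D2:**
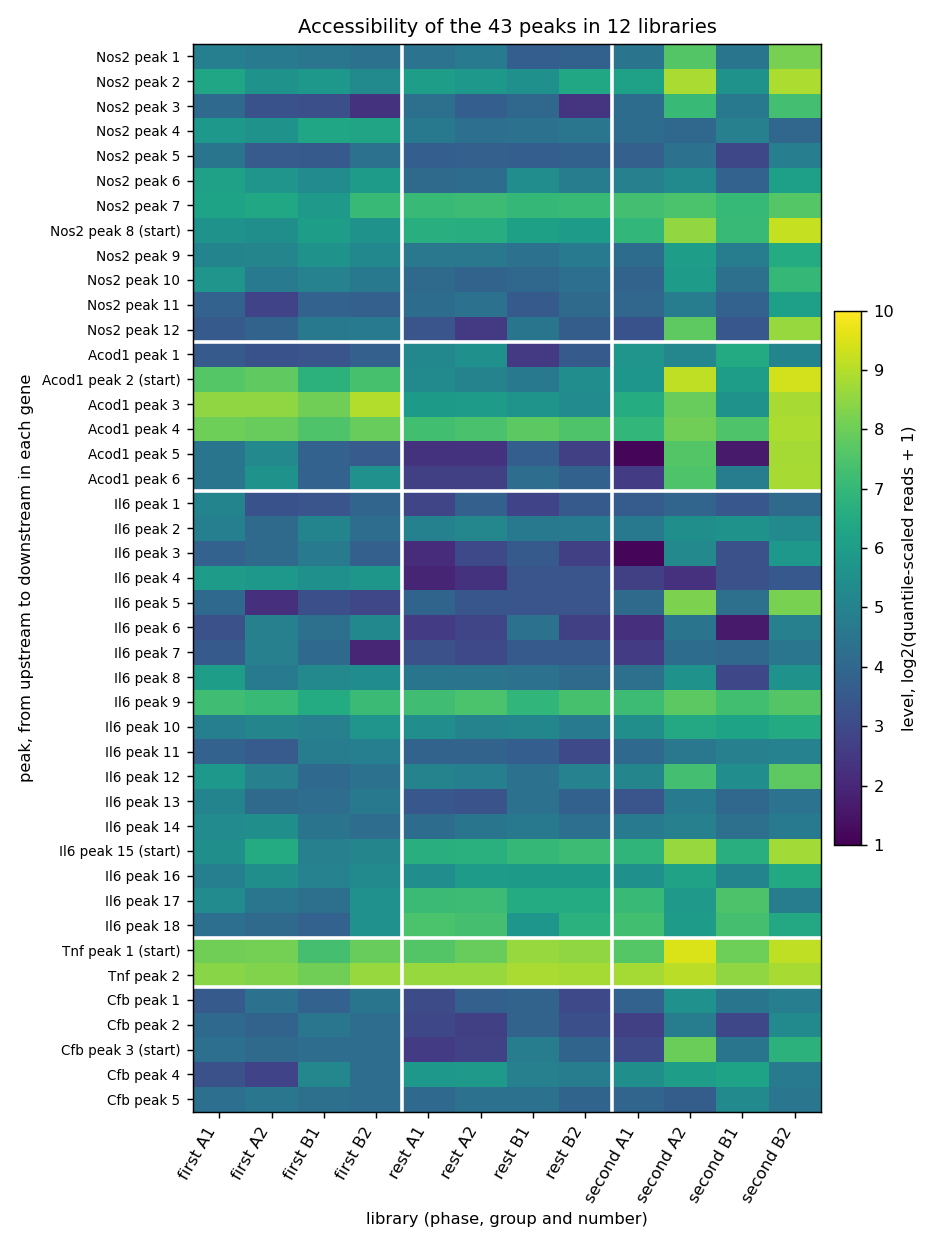
Level of each of the 43 peaks (rows, upstream to downstream within each gene) in each of the 12 libraries (columns), as log2 of quantile-scaled reads plus 1. The columns of second-phase A2 and B2 are brighter than those of A1 and B1 for most rows, and both Tnf rows are bright throughout.

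The 5 start peaks differed in how open they were, and their order was not the same in each phase. Since 99.8% of all peaks are 400 bases wide, as all 5 of these are, their ranks can be compared. In the first phase Tnf (90.1 to 95.1 percentile) and Acod1 (84.8 to 93.5) led and overlapped, Nos2 (65.8 to 75.7) and Il6 (53.2 to 81.9) followed and overlapped, and Cfb was lowest (30.6 to 36.2). In the rest phase the order was Tnf (92.0 to 97.3), Il6 (83.6 to 88.7), Nos2 (73.8 to 83.3), Acod1 (46.4 to 64.7) and Cfb (3.2 to 49.9), and only the last 2 overlapped. In second-phase A1 and B1 the order was Tnf (92.2 and 94.6), Nos2 (86.7 and 88.1), Il6 (86.0 and 83.6), Acod1 (70.6 and 75.1) and Cfb (6.6 and 42.1). In second-phase A2 and B2 Tnf (99.4 and 98.8), Acod1 (98.8 and 99.3), Nos2 (97.0 and 98.9) and Il6 (97.3 and 97.8) were all near the top. There Il6 lay below Tnf and Acod1, the other pairs among these 4 overlapped, and Cfb stood at 94.5 and 85.0.

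Between the first and the rest phase, 4 of the 6 Acod1 peaks became less accessible and the start and downstream peaks of Il6 more accessible, while no peak of Tnf or Cfb passed the test. Over the 43 peaks, 3 rose (all of Il6), 11 fell (4 of Acod1, 3 of Nos2 and 4 of Il6) and 29 did not pass, by limma on quantile-scaled reads with an adjusted p under 0.05 (n = 4 rest-phase and 3 first-phase samples). Of all 139557 peaks tested, 19.8% were called higher and 18.9% lower, so the share that rose is below and the share that fell above the background. The median log2 fold of the members was -0.30, against 0.02 over all peaks. This split depends on the scaling. With reads scaled to their total in peaks 8 rose and 4 fell (background 26.4% and 13.4%), and with the authors' scaling 5 rose and 2 fell (background 23.5% and 4.99%), so that both shares are below the background. These scalings move the median fold of all peaks to 0.30 and 0.74. The authors' scaling comes from comparisons within a phase, and its use between phases here is not theirs. It also depends on single libraries: without rest-phase B1 or first-phase B2 5 rose, and 5, 6 and 7 fell without rest-phase A1, A2 and B2 and 7 without first-phase B1. Without those rest-phase libraries (background 16.5%, 16.6% and 17.5%) the share that fell is also below the background.

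The start peak of Acod1 fell from levels of 7.62, 7.81, 6.78 and 7.40 in the first-phase libraries (A1, A2, B1, B2) to 5.26, 5.02, 4.65 and 5.42 in the rest phase. The 2 phases did not overlap, and the log2 fold was -2.22 (SE 0.30, limma adjusted p = 5.6e-05). Peak 3, in the gene just past the start, went from 8.50, 8.49, 8.06 and 8.97 to 5.90, 5.97, 5.67 and 5.35, the largest fall among the Acod1 peaks (-2.91, SE 0.27, adjusted p = 2.8e-06). Peaks 5 and 6 also fell, by 1.33 and 1.49 on the log2 scale (limma adjusted p = 0.0376 and 0.0272). With the authors' scaling the start peak no longer passed (-1.31, limma adjusted p = 0.177), while peak 6 did not pass under 6 of 15 alternatives. Peak 4, in exon 4 of 5 and the most open Acod1 peak on average, did not pass, with levels of 7.53 to 8.02 and 7.27 to 7.74 (-0.34, SE 0.21). The authors' scaling turned its fold to 0.32. Peak 1, upstream of the gene, stood at 3.26 to 3.76 in the first phase and at 5.22, 5.51, 2.54 and 3.53 in the rest phase, where the groups part (0.71, SE 0.60, adjusted p = 0.376). It passed with the authors' scaling (1.54, limma adjusted p = 0.0190) and without rest-phase B1 (1.33, adjusted p = 0.0426).

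At Nos2 whether the start peak passed the threshold depended on the scaling. It stood at 5.59, 5.48, 6.06 and 5.63 in the first and 6.64, 6.62, 6.12 and 5.94 in the rest phase, which overlap (log2 fold 0.57, SE 0.28, limma adjusted p = 0.121). With total reads it did pass (1.09, limma adjusted p = 0.0128), as it did with the A and B groups as terms (0.62, adjusted p = 0.0487). Peak 7, the most open upstream peak on average, was at 6.21, 6.36, 5.82 and 7.07 and then at 7.07, 7.18, 7.00 and 7.08 (0.69, SE 0.28, adjusted p = 0.0640), and passed under 3 of 15 alternatives, among them total reads (1.23, limma adjusted p = 0.00641). The 3 peaks that fell were peak 4, far upstream (-1.60, SE 0.29, limma adjusted p = 0.000631), peak 6 (-1.10, adjusted p = 0.0262) and peak 10 (-0.88, adjusted p = 0.0441). Peak 4 went from 5.79, 5.60, 6.28 and 6.25 to 4.62, 4.29, 4.35 and 4.52, with no overlap, though with the authors' scaling it did not pass (-0.54, limma adjusted p = 0.552).

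Il6 is the gene whose peaks moved both ways. The start peak rose from 5.48, 6.52, 4.91 and 5.11 to 6.67, 6.73, 7.00 and 7.19, so that every rest-phase library lay above every first-phase one (log2 fold 1.50, SE 0.31, limma adjusted p = 0.00152). Downstream of the gene, peak 18 rose from 4.30, 4.09, 3.83 and 5.56 to 7.46, 7.33, 5.73 and 6.76 (2.28, SE 0.45, adjusted p = 0.00112). Peak 17 rose likewise (1.87, SE 0.32, adjusted p = 0.000384). In contrast, 4 of the 14 upstream peaks fell, among them peak 4, which went from 5.98, 5.79, 5.53 and 5.77 to 1.94, 2.32, 3.36 and 3.38 (-2.94, SE 0.42, limma adjusted p = 8.6e-05). Peaks 3, 6 and 8 fell by 1.29, 1.42 and 1.02 on the log2 scale (limma adjusted p = 0.0330, 0.0269 and 0.0151). The most open Il6 peak on average after scaling, peak 9, lies 64782 bases upstream and stood at 6.54 to 7.25 and then at 6.91 to 7.44 (0.30, SE 0.24), and passed with total reads alone (0.78, limma adjusted p = 0.0432). The start peak and peaks 4, 17 and 18 kept their call under all 15 alternatives run.

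Both Tnf peaks were open throughout. The start peak was at 8.04, 8.10, 7.34 and 7.91 in the first and at 7.58, 7.89, 8.61 and 8.50 in the rest phase, which overlap (log2 fold 0.40, SE 0.28, limma adjusted p = 0.271). Peak 2 was at 8.04 to 8.62 and 8.60 to 8.84 (0.41, SE 0.18, adjusted p = 0.0814), and passed under 2 of 15 alternatives, without first-phase B2 (0.56, limma adjusted p = 0.0281) and with the first-phase group A pair as 2 libraries (adjusted p = 0.0433). Cfb was the least open. Its start peak was at 4.30, 4.09, 4.20 and 4.22 in the first phase, and at 2.60, 2.77, 4.78 and 3.90 in the rest phase (-0.68, SE 0.49, limma adjusted p = 0.293). Cfb peak 4 stood at 3.22, 2.81, 5.15 and 4.22, and then at 5.79, 5.84, 4.91 and 4.80 (1.29, SE 0.49, adjusted p = 0.0512), and Cfb peak 2 at 3.85 to 4.54 and 2.70 to 3.87 (-1.02, SE 0.40, adjusted p = 0.0562). Neither passed, though peak 4 did under 7 of 15 alternatives, among them total reads (1.55, limma adjusted p = 0.0175) and the authors' scaling (1.99, adjusted p = 0.00806). Peak 2 passed under 4 of 14, with adjusted p from 0.0178 (limma without rest-phase B1) to 0.0498. Cfb peak 5 stayed at 3.90 to 4.54 in both phases (-0.14, SE 0.32), with a fold of 0.095 by total reads and 0.54 by the authors' scaling.

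The comparison of the second with the rest phase asks what IFN-γ and LPS do at these genes. In libraries A2 and B2 nearly all peaks of Nos2 and Acod1, the start peak and 13 of the 14 upstream peaks of Il6, and the start peaks of Tnf and Cfb were more open than in any rest-phase library, while A1 and B1 both exceeded the rest phase at 7 of the 43 peaks. With all 4 second-phase libraries against the 4 of the rest phase, limma called 0 of the 43 members in either direction, and 0% of all peaks. At an unadjusted p under 0.05 there were 14 members, all higher, and 15966 peaks in all. The folds were positive at 40 of 43 members, with a median of 0.65 against -0.08 over all peaks. With the authors' scaling limma called 187 peaks higher and 2 lower (0.134% and 0.00143%), none of them a member, and total reads called 0.

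Libraries A2 and B2 both lay above all 4 rest-phase libraries at 34 of the 43 peaks, where 17.8% of all peaks did: 10 of 12 for Nos2, 5 of 6 for Acod1, 15 of 18 for Il6, 1 of 2 for Tnf and 3 of 5 for Cfb. Both lay below at 2 peaks, Nos2 peak 4 and Il6 peak 17, where 22.9% of all peaks did. Libraries A1 and B1 lay above at 7 peaks (background 6.66%) and below at 2 (background 8.78%). Without A1 and B1, a choice made after their profiles were seen, limma called 23 members higher (background 9.14%) and 1 lower (background 6.11%): 8 higher for Nos2, 5 for Acod1, 6 for Il6, 1 for Tnf and 3 for Cfb, with a median fold of 1.29 against -0.15 over all peaks. Without A2 and B2 it called 0 members, and 0% of all peaks, with a median fold of 0.12. At Cfb the 3 peaks that lay above and the 3 called higher are peaks 1 to 3, of which peaks 1 and 2 are uncertain as Cfb peaks. Since the libraries were chosen by their profile, the folds without A1 and B1 are given below as sizes, with no p.

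**Figure D3:**
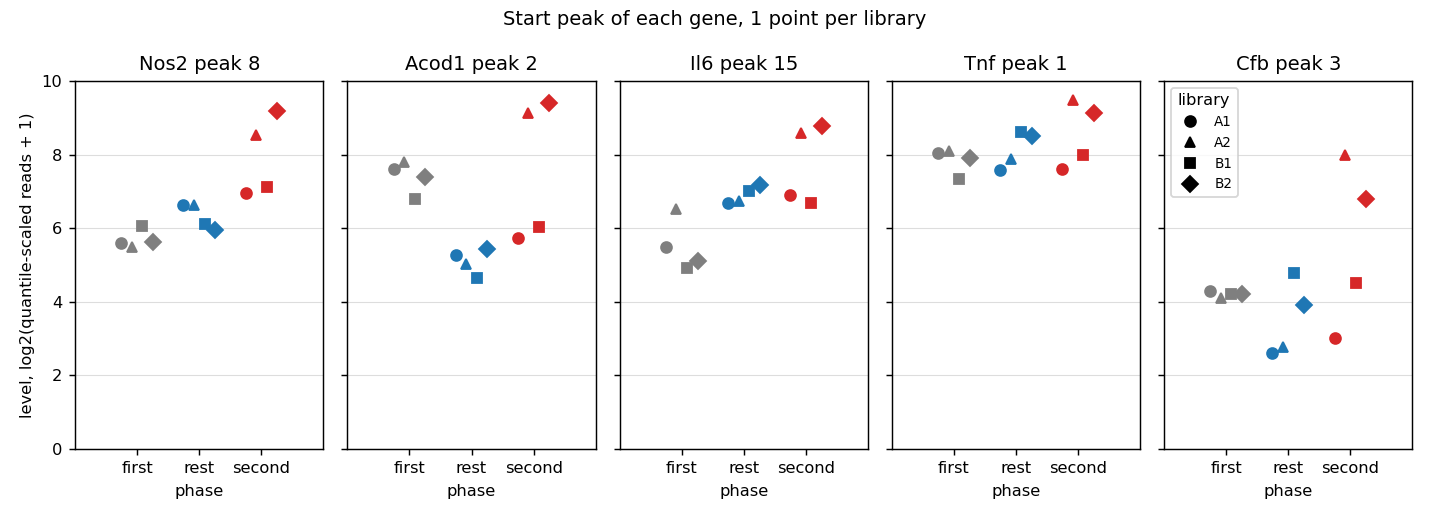
Level of the start peak of each gene (y axis, log2 of quantile-scaled reads plus 1) in the 3 phases, with 1 point per library and shapes for A1, A2, B1 and B2. In the second phase A2 and B2 lie above A1 and B1 and above all rest-phase libraries in all 5 panels.

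At Acod1, the itaconate enzyme, the start peak stood at 5.74 and 6.02 in second-phase A1 and B1 but at 9.13 and 9.39 in A2 and B2, against 4.65 to 5.42 in the rest phase. The log2 fold over all 4 libraries was 2.35 (SE 0.67, limma adjusted p = 0.422), and without A1 and B1 3.96. Peak 5, in the last intron, ranked among the least open peaks in A1 and B1 and among the most open in A2 and B2. It held 1 and 4 reads in A1 and B1 against 229 and 277 in A2 and B2, or levels of 1.12 and 1.66 against 7.59 and 8.78, with 2.32 to 3.70 in the rest phase. In percentiles it stood at 0.1 and 0.5 in A1 and B1 and at 92.0 and 97.9 in A2 and B2. Peak 6, past the end of the gene, went the same way, with 2.58 and 4.80 against 7.53 and 8.84 (rest phase 2.70 to 4.20; fold 2.57 over all 4 libraries, SE 1.05, and 4.85 without A1 and B1). Peak 4, open in every phase, showed a smaller step, from 6.97 and 7.51 in A1 and B1 to 8.04 and 8.89 in A2 and B2. Peak 1 is the exception at this gene: A2 and B2, at 5.17 and 5.07, lay below A1 and B1, at 5.70 and 6.51.

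The start peak of Nos2 stood at 6.96 and 7.12 in second-phase A1 and B1 and at 8.52 and 9.19 in A2 and B2, all 4 above the rest-phase range of 5.94 to 6.64 (log2 fold 1.48, SE 0.39, limma adjusted p = 0.422, and 2.33 without A1 and B1). It is 1 of the 7 peaks at which A1 and B1 too lay above the rest phase. Inside the gene, peak 12 in intron 11 of 26 held 13 and 10 reads in A1 and B1 and 259 and 251 in A2 and B2, or levels of 3.26 and 3.45 against 7.77 and 8.63 (rest phase 2.54 to 4.51). Far upstream, peaks 1, 2 and 3 formed a group with the same pattern. Peak 2, 33574 bases before the start, stood at 6.16 and 5.60 in A1 and B1 and at 8.84 and 8.88 in A2 and B2, against 5.51 to 6.36 in the rest phase. Peak 3 stood at 4.18 and 4.65 against 7.05 and 7.30 (rest phase 2.39 to 4.32; fold 2.25 over all 4 libraries, SE 0.70, and 3.67 without A1 and B1). Peak 7, nearer to the start, differed little, from 7.00 to 7.18 in the rest phase to 7.44 and 7.61 in A2 and B2. Peak 4 did not follow its neighbours: it stood at 4.18, 4.01, 4.93 and 3.96 in the second phase (A1, A2, B1, B2) and at 4.29 to 4.62 in the rest phase.

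**Figure D4:**
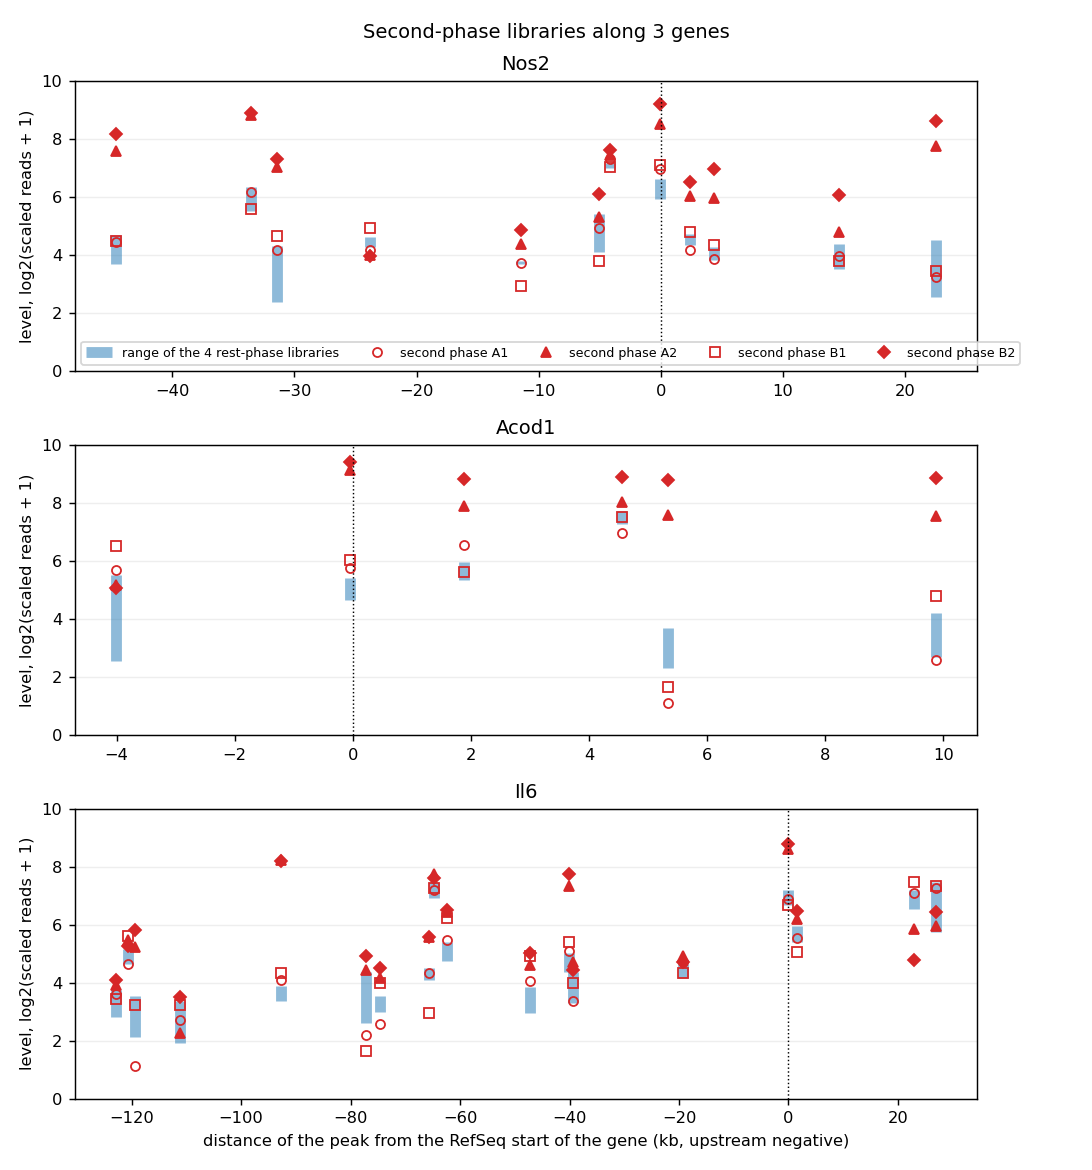
Level of each peak (y axis, log2 of quantile-scaled reads plus 1) against its distance in kb from the RefSeq start of Nos2, Acod1 and Il6 (upstream negative); bars span the 4 rest-phase libraries, filled symbols are second-phase A2 and B2, and open symbols A1 and B1. Most filled symbols lie above the bars, as at Nos2 peak 12 (7.77 and 8.63 against 2.54 to 4.51), while at Il6 peak 17 they lie below.

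At Il6 the step differed in size and direction between peaks. The start peak, which holds the NF-kB consensus shown above, stood at 6.90 and 6.67 in A1 and B1 and at 8.59 and 8.76 in A2 and B2, against 6.67 to 7.19 in the rest phase (log2 fold 0.72, SE 0.38, limma adjusted p = 0.469, and 1.60 without A1 and B1). Peak 5, 92795 bases upstream, held 348 and 189 reads in A2 and B2 and 28 and 15 in A1 and B1, or levels of 8.23 and 8.18 against 4.09 and 4.33 (rest phase 3.36 to 3.89). Its fold over all 4 libraries, 2.68 (SE 0.84), was the highest of the 43 peaks, and was 4.70 without A1 and B1. Peak 12, 40105 bases upstream, stood at 7.32 and 7.75 in A2 and B2 and at 5.08 and 5.41 in A1 and B1 (rest phase 4.35 to 5.03). Peak 9, the most open on average, stood at 7.73 and 7.60 in A2 and B2 against 6.91 to 7.44 in the rest phase. Downstream of the gene the order was the other way round. Peak 17 stood at 7.09 and 7.47 in A1 and B1 but at 5.86 and 4.78 in A2 and B2, below the 6.53 to 7.18 of the rest phase (fold -0.57 over all 4 libraries, SE 0.49, and -1.56 without A1 and B1). Peak 18 stood at 7.27 and 7.33 against 5.94 and 6.44, within the rest-phase range of 5.73 to 7.46. Peaks 17 and 18 are also the downstream peaks that rose from the first to the rest phase.

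The start peak of Tnf, already high in the rest phase (7.58, 7.89, 8.61 and 8.50), stood at 7.62 and 8.00 in second-phase A1 and B1 and at 9.48 and 9.14 in A2 and B2 (log2 fold 0.35, SE 0.32, limma adjusted p = 0.657, and 1.01 without A1 and B1). With the authors' scaling the fold over all 4 libraries was -0.03, and that of peak 2 turned from 0.07 to -0.35. Peak 2 kept to 8.50 to 9.08 in the second and 8.60 to 8.84 in the rest phase, so the libraries overlap. At Cfb, the complement protease, the start peak stood at 3.00 and 4.50 in A1 and B1 and at 7.99 and 6.80 in A2 and B2, against 2.60 to 4.78 in the rest phase. It held 10 and 16 reads in A1 and B1 and 299 and 74 in A2 and B2. The fold was 2.10 over all 4 libraries (SE 0.92, limma adjusted p = 0.427) and 3.97 without A1 and B1. Peaks 4 and 5, inside the gene, did not follow: peak 4 stood at 5.48, 6.00, 6.22 and 4.70 in A1, A2, B1 and B2 and peak 5 at 3.93, 3.64, 5.31 and 4.52.

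**Figure D5:**
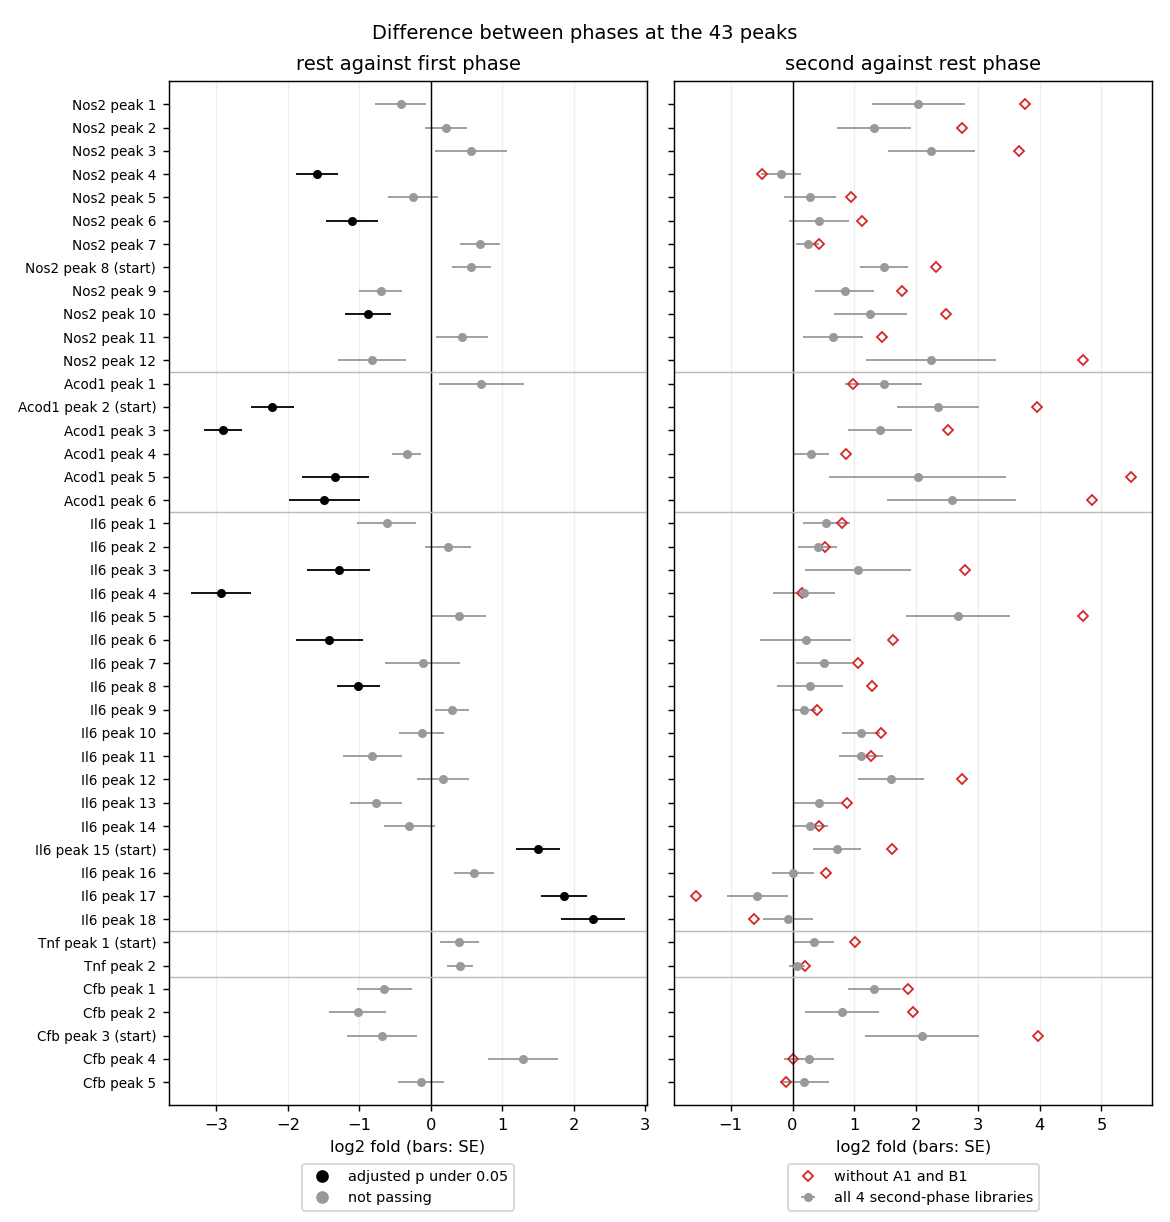
Log2 fold (x axis) of each of the 43 peaks between the first and rest phases (left, rest over first, black where the adjusted p is under 0.05) and between the rest and second phases (right, second over rest, grey for all 4 second-phase libraries, open red diamonds without A1 and B1); bars are SE from limma. On the left the 3 peaks that rose are all of Il6 and 11 fell; on the right no peak passed with all 4 libraries, and most diamonds lie to the right of the grey points.

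Within each phase, the comparison of group A with group B asks whether diabetic and control cells differ, though the columns are not tied to either. In the first phase 0 of the 43 members, and 0% of all peaks, passed in the authors' deposited table. There 1 member had an unadjusted p under 0.05. Limma on quantile-scaled reads also called 0, with 4 members and 5214 of all 139557 peaks at an unadjusted p under 0.05. On simulated data limma called 0% of planted 4-fold changes with these libraries, so a lack of calls does not exclude such changes.

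In the rest phase 12 members were higher in A and 0 in B in the authors' deposited table, where 39.7% and 0.0929% of all peaks were called in these directions. The members' share is thus below the background, and in the authors' deposited table their shrunken log2 folds had a median of 0.94, against 1.04 over all peaks. Rest-phase A1 and A2 held 18602644 and 15990425 reads in peaks, and B1 and B2 5454821 and 8770052. The authors' scaling multiplied reads by 0.891 and 0.953 in A and by 0.793 and 0.939 in B, so the gap in depth stayed in the scaled reads. The part of this gap in the deposited folds and calls was not tested. The 12 called members are 6 peaks of Il6, 3 of Nos2, 2 of Acod1 and 1 of Cfb. With limma on quantile-scaled reads 4 were higher in A and 2 in B (background 6.48% and 5.56%), with total reads 6 and 4 (background 13.1% and 8.29%), and with the authors' scaling 24 and 0 (background 54.9% and 0.461%), so the lean towards A depends on the scaling and is near that of all peaks with the authors' scaling. Leaving out any 1 of the 4 rest-phase libraries left a single one in its group, so calls without it are not given. Peaks that passed in A by both the authors' deposited table and limma on quantile-scaled reads were Acod1 peak 1, Il6 peaks 17 and 18 and Cfb peak 4.

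Acod1 peak 1, 4008 bases upstream of the start, held 80 and 88 reads in rest-phase A and 6 and 10 in B, or levels of 5.22 and 5.51 against 2.54 and 3.53. In the authors' deposited table its shrunken log2 fold stood at 2.78 (adjusted p = 5.4e-05), and limma gave 2.51 (SE 0.47, n = 2 and 2, adjusted p = 0.0111). Cfb peak 4 stood at 5.79 and 5.84 in A and 4.91 and 4.80 in B (2.19 in the authors' deposited table, adjusted p = 0.000199; limma 1.00, SE 0.26, adjusted p = 0.0397). The start peak of Nos2, at 6.64 and 6.62 against 6.12 and 5.94, passed in the authors' deposited table (1.68, adjusted p = 0.0168) but not with limma (0.61, SE 0.20, adjusted p = 0.0764). The start peak of Tnf was the other way round, at 7.58 and 7.89 in A and 8.61 and 8.50 in B: limma called it higher in B (-0.68, SE 0.13, adjusted p = 0.0116). The authors' deposited table has it at 0.41 in favour of A (adjusted p = 0.529). The start peak of Cfb also was higher in B with limma (2.60 and 2.77 against 4.78 and 3.90; -1.80, SE 0.50, adjusted p = 0.0459).

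In the second phase 3 members were higher in A in the authors' deposited table, where 26.7% of all peaks were: Il6 peak 17 (1.70, adjusted p = 0.0242), Cfb peak 4 (1.48, adjusted p = 0.0242) and Tnf peak 2 (1.17, adjusted p = 0.0492). None was higher in B (background 0.00429%). Here too A1 and A2 held more reads in peaks, 17980427 and 10288843, than B1 and B2, 3827344 and 6067273. The authors' scaling multiplied them by 0.884 and 1.098, and by 0.737 and 1.293. The part of depth in these calls was not tested. With limma 0 members passed under any of the 3 scalings. With quantile scaling 0 members had an unadjusted p under 0.05, and 1076 of all 139557 peaks did. The libraries of each group differed more than the groups: at Il6 peak 17 A1 and A2 stood at 7.09 and 5.86 and B1 and B2 at 7.47 and 4.78, and at Cfb peak 4 at 5.48 and 6.00, and 6.22 and 4.70.

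Genes that work with the members were read at the peak nearest their own start, again called the start peak, from the first to the rest phase. It lay farthest from the start for Cfi (9124 bases), Serping1 (-3754), Lta (-2821), C4b (-2773) and Cfd (-1047), with negative values upstream. Over all peaks limma called 19.8% higher and 18.9% lower in this comparison. The counts of the lists below were not tested against these shares. Among 9 genes of nitric oxide and arginine metabolism 0 rose and 2 fell by limma: Arg2, the mitochondrial arginase that competes for arginine (-2.91, SE 0.25), and Ass1, which regenerates arginine from citrulline (-1.22, SE 0.29). Among 9 genes around itaconate and the TCA cycle 0 rose and 4 fell, among them Keap1, the sensor that itaconate modifies (-1.74, SE 0.24). Of 8 genes of IL-6 signalling 0 rose and 4 fell, among them the kinase gene Jak2 (-1.22, SE 0.22) and Socs3, the feedback inhibitor (-0.80, SE 0.30). Over all peaks assigned to the genes of a list, peaks moved both ways. For nitric oxide and arginine 6 rose and 8 fell of 56, for itaconate and the TCA cycle 15 and 14 of 67, and for IL-6 signalling 21 and 45 of 151.

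Of 10 genes of TNF signalling 1 rose and 6 fell. At Lta, the lymphotoxin gene next to Tnf, the nearest peak rose (1.77, SE 0.32), though it lay at -2821 bases from the Lta start. Other peaks assigned to Lta did not follow. That at chr17:35209360 fell (-1.62, limma adjusted p = 0.000758) and that at chr17:35210117 did not pass (0.26). Ltb, a lymphotoxin of lymphoid cells in the same cluster (-4.04, SE 0.38), and the receptor gene Tnfrsf1a (-1.42, SE 0.31) fell most. The 10 complement genes divided, with 4 higher and 3 lower. The receptor gene C3ar1 (2.98, SE 0.24) rose most, and Serping1 (-1.01, SE 0.32) and C3, the central complement protein (-1.002, SE 0.28), fell most. Of 12 regulators 1 rose, Atf3 (1.08, SE 0.15), and 5 fell, among them Cebpb (-1.12, SE 0.23). Over all peaks assigned to the genes of these lists, 15 rose and 25 fell of 105 for TNF signalling, 14 and 8 of 39 for complement, and 33 and 58 of 203 for regulators. At the start peaks the medians of the 6 lists ran from -0.59 (TNF signalling) to 0.17 (nitric oxide and arginine), against 0.02 over all peaks. In the second against the rest phase limma called 0 start peaks in all 6 lists. Libraries A2 and B2 both lay above the rest phase at 3 of 9 nitric oxide, 0 of 9 itaconate, 2 of 8 IL-6, 4 of 10 TNF and 1 of 10 complement start peaks, and at 5 of 12 regulators, where 17.8% of all peaks did. They both lay below at 2, 1, 3, 2 and 2 start peaks of the first 5 lists and at 0 regulators, where 22.9% of all peaks did, so in the itaconate, IL-6 and complement lists more lay below than above.

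The assignment to the nearest gene leaves out peaks nearby that carry other names. Within 100000 bases of the starts there were 26 such peaks near Nos2 (3 genes), 26 near Acod1 (6 genes), 5 near Il6 (2 genes), 42 near Tnf (18 genes) and 25 near Cfb (12 genes). Second-phase A2 and B2 both lay above all rest-phase libraries at 14 of the 26 near Nos2 and 11 of the 26 near Acod1, against 0 of 5 near Il6, 12 of 42 near Tnf and 3 of 25 near Cfb (17.8% of all peaks). They both lay below at 0 near Nos2, 4 near Acod1, 2 near Il6, 9 near Tnf and 6 near Cfb (22.9% of all peaks). One of those near Nos2, assigned to Lyrm9 and 47328 bases upstream of the Nos2 start, stood at 2.35 and 4.65 in A1 and B1 and at 7.02 and 7.80 in A2 and B2. It thus lies just beyond Nos2 peak 1, which stood at 4.46 and 4.50 against 7.60 and 8.16.

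The start peaks whose levels over the 12 libraries were most like those of a member, by Pearson correlation among 11972 genes, were those of Thap2 (r = 0.981), Stat2 (0.967) and Rlbp1 (0.948) for Nos2, and of Fyb (0.960), Tarm1 (0.959) and Irf1 (0.949) for Acod1. For Il6 they were Golgb1 (0.961), Kcnab1 (0.961) and C1s1 (0.949), for Tnf Pla2g4a (0.919), Mir1932 (0.916) and Ubash3b (0.914), and for Cfb Zfp84 (0.939), Ccl5 (0.935) and Psme2 (0.914). The 12 points share their libraries and fall into sets, with second-phase A2 and B2 apart, so these values describe likeness only. Ccl5, a chemokine gene, stood at 8.59 and 8.69 in A2 and B2 and at 3.21 to 4.93 in second-phase A1 and B1 and the 4 rest-phase libraries.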

How the data were processed

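ATAC-seq libraries were compared at peaks. Per the submitters' processing notes the build was mm10, and the tools named, without roles, include DiffBind 3.14.0 with DESeq2, MACS2, Bowtie2 2.5.4, HOMER 5.1 and Picard 3.2.0. The authors deposited 1 table per phase with normalized reads per peak averaged over each group on a log2 scale, a shrunken log2 fold, and a p-value and adjusted p-value. These folds were turned to A over B. The authors' scaling is the weight of a read in each library in these comparisons within phases. Its use between phases is an alternative run here and not the authors' own.

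Each group mean was solved for the whole reads of its 2 libraries, with 1 solution for 139557 peaks (442 with a listed 0 were left out); on 20000 simulated peaks 100% matched. Reads were quantile-scaled over the libraries compared, turned to log2(value + 1) and tested by limma 3.58.1 (R 4.3.3), Benjamini-Hochberg adjusted over all 139557 peaks; within phases the authors' calls at an adjusted p under 0.05 come first. On simulated data limma called 79% of planted 4-fold changes for the rest against the first phase, 90% for the second against the rest, and 48% and 28% within the rest and second phases. The real second-phase libraries differed from their own partners by 15.7 (A) and 7.85 (B) times sampling noise. The simulated libraries were drawn around shared means with the same spread setting, so such a split between partners was not part of them. The 90% and 28% therefore cannot tell whether the lack of limma calls with all second-phase libraries excludes 4-fold changes. The start peak is the one nearest the gene start by the deposited distance, ties going to the RefSeq start. Peaks named with values are, per gene, the start peak, those with the highest and lowest fold in each comparison between phases and the one with the highest mean level, and others that a count singles out after their values were seen. For partner genes up to 2 that rose and 2 that fell most are named, apart from some that are not reported here. Members and lists were chosen with earlier results of these data known.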

Additional observations from a re-analysis of the deposited data

Results flagged for a closer look

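Among 63 sets of 4 libraries (21 named peaks in 3 phases), 1 held a library far from the other 3 by Dixon's criterion, where chance flags about 1 in 20: at Il6 peak 5 in the rest phase A1 stood at 3.891, against 3.42, 3.36 and 3.38.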

How the results depend on the processing

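No paired analysis was possible because the columns carry no replicate numbers. For the rest against the first phase the count of members that rose (3) became 8 with total reads and 5 with the authors' scaling (26.4% and 23.5% of all peaks). It became 5 with group means as terms and 6 with the first-phase group A pair as 2 libraries, where 31479 and 29205 of all 139557 peaks rose. When single libraries were left out it ran from 3 to 5, while 16.6% to 20.7% of all peaks rose. The count that fell (11) became 4 with total reads and 2 with the authors' scaling (13.4% and 4.99% of all peaks). It ran from 5 to 12 when single libraries were left out (5 without rest-phase A1), while 15.4% to 19.6% of all peaks fell. For the second against the rest phase 0 rose and 0 fell under every setting except that without second-phase A1 and B1, chosen after the data were seen. There 23 rose and 1 fell (9.14% and 6.11% of all peaks). Calls within the rest phase (12 in the deposited table) numbered 5 at an adjusted p under 0.01, 6 with limma and quantile scaling and 24 with limma and the authors' scaling. Those within the second phase (3) numbered 0 at an adjusted p under 0.01 and with limma under all 3 scalings. With a library left out its group holds a single one, so no such counts are given for either phase. The share of all peaks at an adjusted p under 0.01 is not given here, so counts at that threshold have no background.

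Of the folds of named peaks, 3 of 314 alternative values between the first and rest phases and 25 of 335 between the rest and second phases turned sign, and none of them passed the test. In the former these were Acod1 peak 4 (0.32 with the authors' scaling) and Cfb peak 5 (0.095 with total reads, 0.54 with the authors' scaling). In the latter the authors' scaling turned Nos2 peak 7 (-0.0065), Il6 peak 9 (-0.072), Tnf peak 1 (-0.027), Tnf peak 2 (-0.35), Cfb peak 4 (-0.066) and Cfb peak 5 (-0.18), and total reads turned Tnf peak 2 (-0.059). Without second-phase A2 and B2 the folds turned at Nos2 peak 4 (0.12), Acod1 peak 4 (-0.22), Il6 peaks 9 (-0.012), 15 (-0.10), 17 (0.40) and 18 (0.47), Tnf peaks 1 (-0.27) and 2 (-0.051) and Cfb peak 2 (-0.38), and without A1 and B1 at Cfb peak 5 (-0.098). Leaving out single libraries also turned folds at 4 peaks, which ran from -0.11 to 0.41 at Il6 peak 4, -0.43 to 0.20 at Il6 peak 18, -0.0068 to 0.15 at Tnf peak 2 and -0.15 to 0.44 at Cfb peak 5. The cause was not tested. Depth limits low peaks most, since the median peak held 9 reads in the first-phase group A libraries.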
